A study of Zea mays with 12 samples.

Results

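Embryos of the inbred maize line B73 were set against embryos of the inbred line Mo17, 3 arrays against 3, which are 6 of the 12 one-colour Affymetrix maize arrays of the series. All 6 samples were total RNA of embryos at 19 days after pollination from plants grown in a field, and the 3 biological replicates of a line stand for 3 collection dates that B73 and Mo17 share by number. The other 6 arrays came from the hybrids B73xMo17 and Mo17xB73. They entered the normalization between arrays, the signal limits, the estimate of the spread and the rankings of probe sets by brightness. No hybrid mean is compared in a difference given here. The members are the 17621 probe sets left after 113 control probe sets were set aside. Each combines several short probes into 1 signal, and 1452 of them carry the name of 1 gene. Whether the probes of a member match 1 transcript alone was not examined. The IDs of 66 members mark them as reporters rather than maize transcripts.

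B73 and Mo17 are parents of well-known hybrid maize, and their genomes differ widely in sequence and in gene content. At this stage the maize embryo has formed its axis and scutellum and fills its cells with globulin storage proteins, oil bodies and late embryogenesis abundant (LEA) proteins, while the endosperm around it stores zeins and starch. A probe set reads the amount of transcript only as far as its probes match the line's own sequence, so a lower signal in a line and a poorer match of that line to the probes cannot be told apart from these arrays. As whole embryos were measured, fewer cells of a type and less RNA per cell cannot be told apart either.

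Signals are given as log2 of the normalized intensity, and differences are B73 minus Mo17, so a positive one is higher in B73. The median deposited signal of an array lay between 218 and 279 in B73 and between 195 and 273 in Mo17. Signals correlated between 0.968 and 0.975 within a line and between 0.914 and 0.919 across the lines. For 5 control transcripts, the log2 ratio of the 3' to the 5' probe set lay between -0.02 and 0.54 in B73 and between -0.04 and 0.53 in Mo17. The actin ratio used 1 of several 5' actin probe sets, and others, described under the last observations, differed between the lines. Of 10 embryo marker genes none was near background in either line on average. Among them 5 were called higher in B73 and 1 higher in Mo17 (median difference 0.36), while 35.9% of all probe sets were called in either direction. The call of dhn1, 1 of the 5, did not hold under every alternative, as given below. The summed linear signal of the 10 markers ran from 38865 to 42483 in B73 and from 36868 to 44557 in Mo17. Among those that did not pass, ole1, an oleosin of oil bodies, averaged 13.82 ± 0.05 in B73 and 13.87 ± 0.11 in Mo17 (SD, n = 3 each), and vp1, the seed maturation regulator Viviparous1, averaged 10.29 ± 0.10 in B73 and 10.28 ± 0.10 in Mo17. Endosperm transcripts were bright as well, with the alpha zein z1C1_4 at 13.64 in B73 and 13.62 in Mo17. Over 21 endosperm marker genes, of which 8 were bright in both lines and 3 (bap-3b, ebe1 and ebe2) near background in both, the summed linear signal ran from 61330 to 65459 in B73 and from 46074 to 55463 in Mo17. The delta zein dzs18 gave 11805 to 12769 of it in B73 and 82 to 102 in Mo17, and over the other 20 markers the sums overlapped, with 48783 to 52689 in B73 and 45992 to 55361 in Mo17.

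B73 and Mo17 differed at 6321 of the 17621 probe sets (35.9%) at a limma adjusted p under 0.05, 2889 higher in B73 (16.4%) and 3432 higher in Mo17 (19.5%). On the deposited values, not normalized between arrays, 2963 probe sets passed and the split turned, with 1813 of them above Mo17 in B73 and 1150 below it (61.2% higher in B73, against 45.7%). A difference of at least 2-fold was called for 2361 probe sets (13.4%), of which 1287 were higher in B73 (7.30%) and 1074 higher in Mo17 (6.10%). The probe sets were then sorted by how bright each line was. A line's mean was taken as near background under the 25th percentile of all normalized values (4.78, or 27.6 signal units) and as bright from the 75th percentile (9.63, or 795 units). Detection calls were not used here, so these limits stand in for a measured background.

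**Figure D1:**
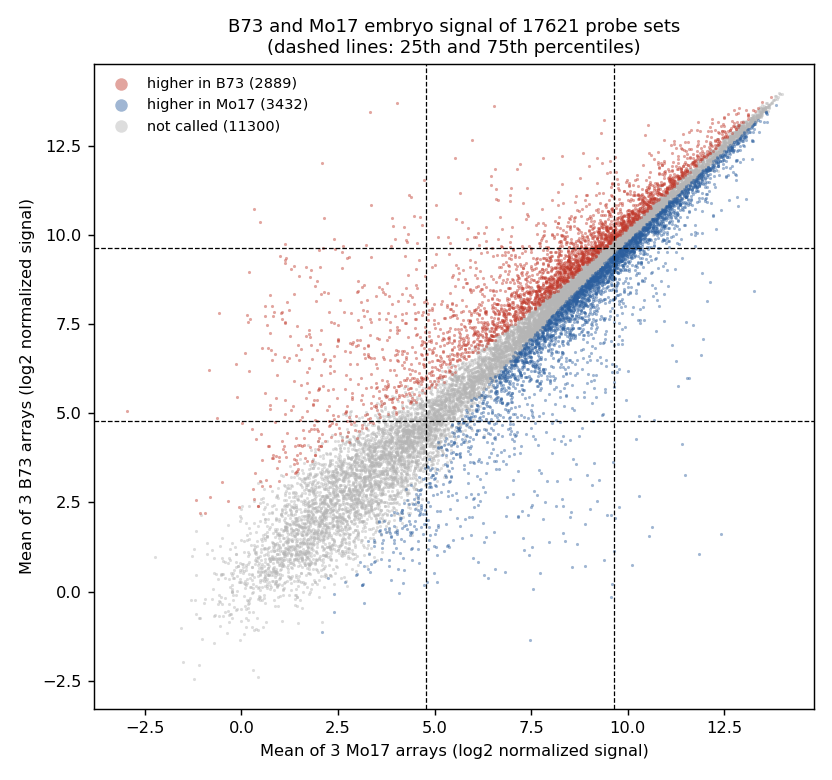
Mean log2 normalized signal of the 3 B73 arrays (vertical axis) against that of the 3 Mo17 arrays (horizontal axis), 1 point per probe set, red where called higher in B73, blue where called higher in Mo17 and grey where not called; dashed lines mark the 25th and 75th percentiles, 4.78 and 9.63. The cloud is narrow at the bright end and wide at the dim end, and many of the points far from the diagonal lie in the regions where 1 line is near background.

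Where both lines were bright, differences were common and small. Of 3886 such probe sets (22.1% of all), 1582 were called (40.7%), 675 higher in B73 and 907 higher in Mo17, while 115 (2.96%) were called at 2-fold or more, 67 higher in B73 and 48 higher in Mo17. The median fold among the calls was 1.28, and 76.8% of the calls were under 1.5-fold. No probe set of this group differed by more than 2.53 on the log2 scale. A limit on both means keeps out probe sets that are low in 1 line, so small differences are partly built into this group. Of 5 equal groups by signal on the hybrid arrays, described below, the brightest had 6.87% called at 2-fold or more. Its largest difference was 10.8 in size. The standard error of a difference had a median of 0.07 where both lines were bright, against 0.75 where both were near background. Among named genes, each taken at its brightest probe set, 326 were bright in both lines and 129 of these were called, 51 higher in B73 and 78 higher in Mo17. At 2-fold or more 17 were called.

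The named genes of this bright group with the largest differences towards B73 included genes of superoxide removal, jasmonate synthesis, sucrose cleavage, lipid transfer, storage protein and water channels. The arrays of the lines did not overlap at 1950 probe sets of the group (50.2%), against 46.9% of all probe sets. Sod4A, a copper/zinc superoxide dismutase, read 12.25, 12.36 and 12.13 in the B73 arrays, against 10.56, 10.48 and 10.80 in the Mo17 arrays. It was 3.11-fold higher in B73 (difference 1.64 ± 0.09 SE, adjusted p = 4.6e-09), and the lines did not overlap. The transcript esp1 read 12.66, 12.61 and 12.67 in B73, against 11.70, 10.49 and 10.67 in Mo17 (1.69 ± 0.27, adjusted p = 0.00019). Its B73 arrays lay close together, and in Mo17 replicate 1 stood above the other two without reaching the B73 range. The allene oxide cyclase gene aoc1, which acts in jasmonate synthesis, read 11.31, 11.45 and 11.62 in B73, against 9.65, 10.31 and 10.17 in Mo17 (1.41 ± 0.13, adjusted p = 1.6e-06). The sucrose synthase gene sus2, whose enzyme cleaves sucrose, read 11.19, 11.29 and 11.20 in B73, against 9.98, 10.02 and 9.71 in Mo17 (1.32 ± 0.10, adjusted p = 1.4e-07). In both genes every B73 array exceeded every Mo17 array by a wide margin relative to the spread within lines. The other genes in order of size were plt2, a phospholipid transfer protein (1.37), glb3, an embryo globulin (1.26), z1C2, an alpha zein (1.22), and tip1, a tonoplast aquaporin (1.15), each without overlap. The widest spread among them was that of z1C2 in B73, at 11.52, 10.97 and 10.52, against 9.87, 9.75 and 9.71 in Mo17.

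Towards Mo17, the bright group was led by a kernel transfer tissue gene, a globulin and redox, proton pump, starch and formate genes. The gene meg2, a member of the maternally expressed gene family of the basal endosperm, read 9.74, 10.07 and 10.39 in B73, against 11.58, 12.19 and 11.50 in Mo17. It was 3.23-fold higher in Mo17 (difference -1.69 ± 0.20 SE, adjusted p = 1.4e-05), and the lines did not overlap. The thioredoxin h gene trh2 read 10.70, 10.88 and 11.12 in B73, against 12.15, 12.10 and 12.20 in Mo17 (-1.25 ± 0.09, adjusted p = 1.1e-07). The plasma membrane proton pump gene mha4 read 9.87, 9.83 and 9.99 in B73, against 10.82, 11.09 and 11.17 in Mo17 (-1.13 ± 0.09, adjusted p = 3.2e-07). In both genes the gap between the lines was several times the spread within a line. The formate dehydrogenase gene fdh1 read 11.82, 11.66 and 11.55 in B73, against 12.66, 12.57 and 12.57 in Mo17, the smallest of the 8 differences (-0.92 ± 0.06, adjusted p = 6.2e-08). The starch synthase gene sugary2 read 10.79, 10.96 and 11.26 in B73, against 11.76, 12.38 and 11.85 in Mo17 (-0.99 ± 0.20, adjusted p = 0.0016). Its arrays did not overlap between the lines, though both lines spread more than for fdh1. The remaining 3 were glb2, an embryo globulin (-1.27), betl1c, a basal endosperm transfer layer gene (-1.03), and yab10, a YABBY transcription factor, 2.01-fold higher in Mo17. The embryo globulin genes glb2 and glb3 therefore stood on opposite sides, by -1.27 for glb2 and 1.26 for glb3.

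**Figure D2:**
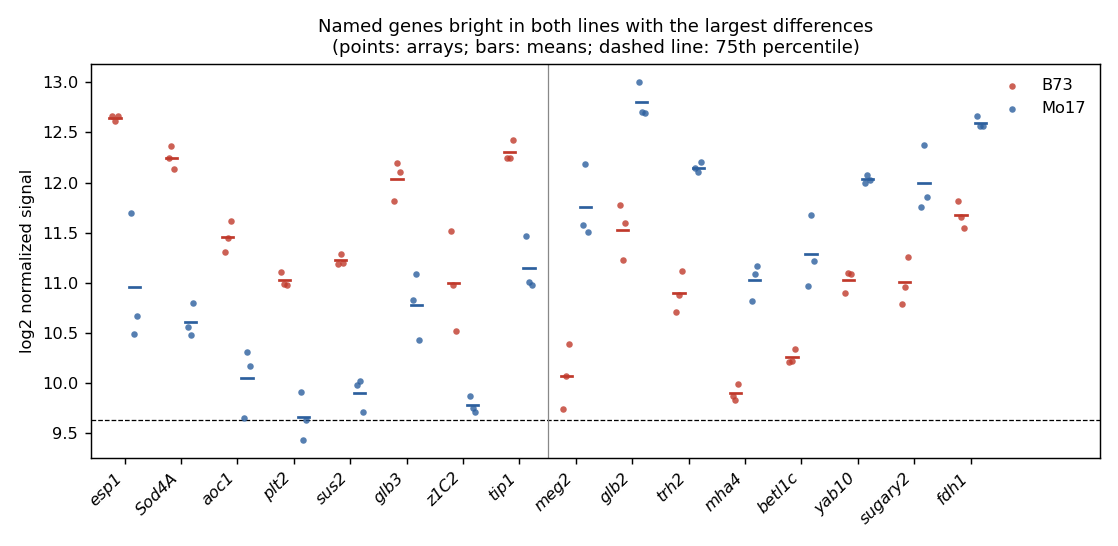
Log2 normalized signal (vertical axis) of the 16 named genes with the largest differences among genes bright in both lines, 8 in each direction, with B73 (red) left of Mo17 (blue); points are arrays, bars are means of 3 arrays and the dashed line is the 75th percentile, 9.63. The arrays of the lines overlap at none of the 16 genes, and the widest spreads within a line are those of esp1 in Mo17 and z1C2 in B73.

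Unnamed probe sets reached larger differences than any named gene of the bright group. Zm.2648.1.A1_at read 13.01, 13.06 and 13.14 in B73, against 11.02, 10.61 and 9.98 in Mo17 (2.53 ± 0.18, adjusted p = 9.1e-08), and Zm.9296.1.A1_at differed by 2.50 ± 0.16. In the other direction Zm.735.1.S1_at read 10.37, 10.19 and 9.91 in B73, against 12.29, 12.29 and 12.28 in Mo17 (-2.13 ± 0.13, adjusted p = 1.5e-08), and Zm.16049.2.A1_at differed by -2.06 ± 0.13. The annotation used here gives none of these 4 a gene.

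The bright group also held genes whose lines could be held to be close. A 95% interval of the difference that lay wholly within 0.25 on the log2 scale to either side of 0 was found for 1159 bright probe sets (29.8% of the group) and for 106 named genes. The alcohol dehydrogenase gene adh1 read 13.43, 13.43 and 13.48 in B73, against 13.47, 13.41 and 13.42 in Mo17, with an interval from -0.09 to 0.12. The vacuolar aquaporin gene tip3b read 13.24, 13.33 and 13.31 in B73, against 13.37, 13.27 and 13.33 in Mo17, with an interval from -0.13 to 0.08. The zein z1C1_4 had an interval from -0.08 to 0.11. In these 3 genes the arrays of the lines overlapped. A narrow interval and a call could also fall together: the alpha tubulin gene tua4 read 13.45, 13.44 and 13.42 in B73, against 13.60, 13.55 and 13.60 in Mo17, a 1.11-fold difference with adjusted p = 0.017. The ADP-glucose pyrophosphorylase gene Agp2 differed by 0.12 (1.09-fold, adjusted p = 0.049) and the adenine nucleotide translocator gene ANT-G2 by 0.12 (adjusted p = 0.056), which put almost equal differences on both sides of the threshold. The calls of tua4 and Agp2 ended without the intensity trend (adjusted p = 0.051 for tua4 and 0.1 for Agp2), with the 6 inbred arrays alone (0.062 and 0.13) and with the values as deposited (0.83 and 0.84), and that of Agp2 also ended with median centring (0.78), with a replicate block (0.062) and when any 1 of the 6 arrays was left out (0.056 to 0.15).

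Where both lines were measured but not both bright, calls were about as frequent and differences larger. Of 8598 such probe sets, 3779 were called (44%), 1699 higher in B73 and 2080 higher in Mo17, and 1305 reached 2-fold (15.2%), 715 higher in B73 and 590 higher in Mo17. The median fold among the calls was 1.68. Among the named genes here were nip3a, an aquaporin of the NIP subfamily, at 10.55, 10.68 and 10.96 in B73, against 7.97, 7.68 and 7.73 in Mo17 (2.94 ± 0.12, adjusted p = 4.7e-10). The beta tubulin gene TUBB2 read 7.13, 7.43 and 7.69 in B73, against 9.90, 9.85 and 10.03 in Mo17 (-2.51 ± 0.15, adjusted p = 1.7e-08). Both differences were many times the spread within a line and ran in opposite directions.

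In a further set of probe sets 1 line was near background and the other above it. B73 was above and Mo17 near background at 619, of which 414 were called (66.9%). Mo17 was above and B73 near background at 591, of which 317 were called (53.6%). As these groups were formed from the means that the contrast compares, their shares describe the sorting and test nothing. Most of these probe sets were only just above the limit in the other line: 521 of the 619 and 538 of the 591 lay under the median of all values there. Those with the other line from the 75th percentile up numbered 26 with B73 bright and 12 with Mo17 bright, and all of them were called. Of these, 4 of the 26 and 0 of the 12 were named probe sets.

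The named genes with Mo17 near background were led by TPS9 and HRGP. TPS9 averaged 12.02 ± 0.02 in B73 (SD, n = 3), against 3.76, 3.48 and -0.99 in the Mo17 arrays. With every value under the 25th percentile raised to it, TPS9 was at least 151-fold higher in B73. HRGP, a hydroxyproline-rich cell wall glycoprotein, read 11.08, 10.77 and 10.29 in B73, against 2.76, -0.88 and -0.89 in Mo17, at least 60.8-fold higher in B73. The Mo17 values of both genes lay where single arrays of a line scatter over several log2 units, which is why only a lower limit of the fold is given. The gene saf1, known as a safener-induced transcript, read 8.45, 8.20 and 8.22 in B73, against 4.10, 4.56 and 1.77 in Mo17, at least 11.3-fold. LOB21, a gene of the lateral organ boundaries family, read 7.86, 7.82 and 7.81 in B73, against 0.75, 1.51 and 0.27 in Mo17, at least 8.24-fold. For sig3, a plastid sigma factor, the B73 arrays read 7.58, 7.85 and 7.53, against 1.63, 5.17 and 3.90 in Mo17, at least 6.68-fold. In sig3 Mo17 replicate 2 lay above the limit of 4.78 and the other two below it. The limma adjusted p of these 5 genes lay between 6.9e-10 (LOB21) and 0.00011 (sig3).

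The named genes with B73 near background were led by tip2a, a tonoplast aquaporin gene, at 5.03, 4.73 and 3.46 in B73, against 7.48, 7.40 and 7.23 in Mo17, at least 5.67-fold higher in Mo17. The gene acco20, for an aminocyclopropane carboxylate oxidase that makes ethylene, read 5.59, 3.49 and 4.68 in B73, against 6.75, 7.09 and 6.99 in Mo17, at least 3.71-fold. In both genes 1 B73 array lay above the limit of 4.78 and no array of the lines overlapped. The gene rcph2 read 4.19, 4.43 and 4.72 in B73, against 6.36, 6.35 and 6.43 in Mo17, at least 3.03-fold. MPK4, a mitogen-activated protein kinase, was at least 2.74-fold higher in Mo17, and GR2b at least 2.35-fold. The adjusted p ran from 1.9e-05 (GR2b) to 0.0026 (MPK4).

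Where both lines were near background, few probe sets were called. Of 3927 such probe sets 229 were called (5.83%), 101 higher in B73 and 128 higher in Mo17, and 2 of the 3927 were called with the floor at the 25th percentile. As the floor sets all values under the limit equal, the loss of a call with it follows largely from the sorting in this group. All 229 calls were differences of 2-fold or more. The array also carries 66 probe sets whose IDs mark them as reporters rather than maize transcripts: their median was 1.93 and their 95th percentile 4.89, close to the limit of 4.78. Both lines were under the limit at 63 of the 66. Of the reporter probe sets 2 were called (3.03%), with differences of -2.16 and 2.56, and 0 with the floor. One reporter probe set was bright, at 13.45 in B73 and 13.47 in Mo17. Correlations across the lines were 0.921 to 0.933 in the bright group, against 0.977 to 0.991 within a line. Where both lines were measured but not both bright they were 0.776 to 0.795, against 0.967 to 0.978 within a line. Near background they were 0.461 to 0.546, against 0.537 to 0.602 within a line. The groups span unlike ranges of signal, so their correlations are not set against each other.

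Sorting by the 6 hybrid arrays avoids forming groups from the compared means. Of 5 groups of equal size, ranked by mean signal on the hybrid arrays, 7.06% of the dimmest was called, then 30.4%, 48.2% and 48.5%, and 45.1% of the brightest. The share called at 2-fold or more ran 7.06%, 23.0%, 19.0%, 11.1% and 6.87% over the same groups. The median standard error was smaller in each brighter group, being 0.78 in the dimmest and 0.07 in the brightest. Small differences were called mostly at the bright end, where the median fold among calls was 1.32, against 5.65 in the dimmest group.

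**Figure D3:**
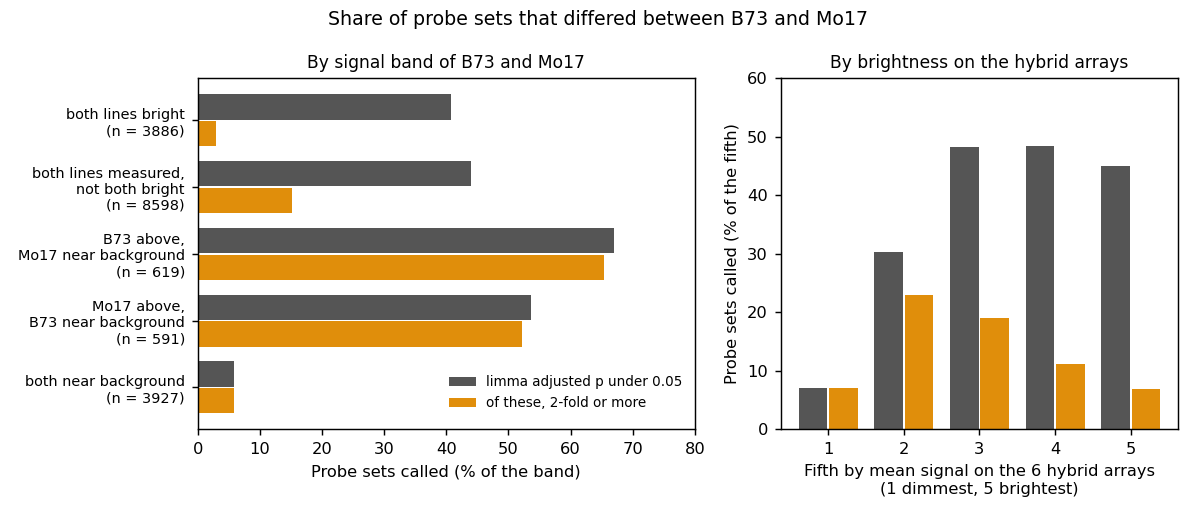
Percentage of probe sets called (dark) and called at 2-fold or more (orange) in 5 groups by the signal of B73 and Mo17 (left) and in 5 equal groups by mean signal on the 6 hybrid arrays (right). Calls are least frequent where both lines are near background (5.83%) and calls of 2-fold or more are rare where both are bright (2.96%).

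Several probe sets of 1 gene could be compared within the arrays, though whether they share probes was not examined. Of 222 genes with at least 2 probe sets (566 probe sets), 29 had all of them called one way, 12 higher in B73 and 17 higher in Mo17. In 84 some were called and all calls ran one way, in 10 calls ran in opposite directions, and in 99 none was called. Among the 53 genes with at least 2 calls the opposite ones made up 18.9%. Without probe sets whose IDs end in _s_at or _x_at, 7 genes had opposite calls. With the probe sets limited to those measured in both lines, 6 of 43 genes with at least 2 calls were opposite (14.0%), and with those bright in both lines 1 of 13 (7.69%). The uncalled partners in the 84 genes were 130 probe sets: 42 were near background in both lines, 8 in 1 line, and 80 were measured in both. Of these 80, 37 were bright in both lines and 20 had intervals within 0.25 of 0.

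The genes that agreed spanned storage, cell wall, jasmonate and transfer tissue functions. All 4 probe sets of the delta zein gene dzs18 were higher in B73, by 7.04 and 2.64 at the 2 measured in both lines, and at least 479-fold and 396-fold at the 2 with Mo17 near background. The brightest in B73 read 13.69, 13.76 and 13.62 there, against 3.61, 4.40 and 4.06 in Mo17. The 4 shared the direction, and the 2 measured in both lines differed in size. The cellulose synthase gene CesA-4 was higher in B73 by 2.56 at one probe set and at least 11.7-fold at the other, where Mo17 was near background, and aoc1 by 1.41 and 1.60 at its 2 probe sets. The UMPS gene for uridine monophosphate synthase was higher in Mo17 by 0.58 at one probe set and 3.19 at the other (differences of -0.58 and -3.19). It read 10.39, 10.52 and 10.53 in B73, against 11.08, 11.17 and 10.91 in Mo17 at the brighter one, and 5.92, 5.73 and 6.17 in B73, against 9.12, 9.22 and 9.06 in Mo17 at the dimmer one. Neither probe set overlapped between the lines, and with the values as deposited the smaller difference did not pass (adjusted p = 0.098). The transfer layer gene bap1-b (-1.84 and -2.20), meg2 (-1.69 and -1.73), the cysteine protease gene ccp2 (-0.79 and -0.93) and the protease gene mir3 (-1.53 and -1.05) gave like sizes at both of their probe sets. The 2 IDs of each of these genes differ only in their ending, so the 2 values may not be independent. The same holds for CesA-4, UMPS and ec2e, and for the dzs18 probe sets with 7.04 and with at least 396-fold. The gene ec2e, also named rpl39 for a ribosomal protein, was higher in Mo17 at both, with differences of -0.58 and -1.10, the smaller of which did not pass with the values as deposited (adjusted p = 0.11).

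Opposite calls were clearest in tub6, a beta tubulin gene, where all 4 probe sets were called and 3 of them were bright in both lines. One read 12.16, 12.27 and 12.43 in B73, against 9.31, 8.33 and 8.89 in Mo17 (3.44 ± 0.17, adjusted p = 2.5e-09). Another read 10.87, 10.74 and 11.01 in B73, against 11.75, 11.61 and 11.48 in Mo17 (-0.74 ± 0.12, adjusted p = 0.00021). Neither overlapped between the lines, and the other 2 were higher in B73 by 1.05 and 0.31. The IDs of the 3 probe sets higher in B73 differ only in their ending, so their values may not be independent. The call at 0.31 ended on the deposited values (adjusted p = 0.46) and after median centring (0.079). Tubulin genes are close copies of each other, and which copies each probe set reads was not analysed here. The alpha expansin gene expA4, for a wall-loosening protein, was lower in B73 at its brightest probe set (-0.20) and higher at the other 2 (1.44 and 2.23). That brightest probe set read 10.94, 10.86 and 10.98 in B73, against 11.20, 11.06 and 11.13 in Mo17, and its call ended without B73 replicate 2 (adjusted p = 0.09), without Mo17 replicate 1 (0.079) and with the values as deposited (0.79).

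The cystatin gene cpi2, an inhibitor of cysteine proteases, had 2 measured probe sets that opposed each other. They differed by 0.37 ± 0.09 and by -1.97 ± 0.09, and 2 more were near background. The second read 7.81, 7.57 and 7.87 in B73, against 9.71, 9.75 and 9.71 in Mo17, far apart and with little spread. The pyruvate decarboxylase gene pdc2 read 7.43, 7.96 and 8.09 in B73, against 4.81, 4.69 and 4.62 in Mo17 at one probe set, and 3.18, 3.25 and 3.68 in B73, against 6.65, 7.65 and 7.21 in Mo17 at another. Another, measured in both lines, differed by 0.16 with an interval from -0.44 to 0.75. In glct1 the brightest probe set differed by 0.29, a dimmer one was at least 3.69-fold higher in B73 with Mo17 near background, and another at least 3.18-fold higher in Mo17 with B73 near background. Of the 7 probe sets annotated to ubc7, a ubiquitin-conjugating enzyme, 3 bright ones were higher in B73 by 0.24 to 0.36, and 2 with another cluster number were higher in Mo17 (differences of -3.12 and -2.48). Those 2 share the number 34 in their IDs with the probe set of gz27, a gamma zein. The smallest of the 3 bright calls ended without B73 replicate 1 (adjusted p = 0.067), without Mo17 replicate 1 (0.082) and with median centring (0.16). With the values as deposited the small differences of cpi2 (0.37), glct1 (0.29) and the 3 of ubc7 did not pass (adjusted p from 0.26 to 0.61).

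In gst31, a glutathione transferase, 3 probe sets differed by -0.72 to -0.59 and the remaining one by 1.15. The 3 calls towards Mo17 had adjusted p between 0.03 and 0.041, and each ended with the floor (0.051 to 0.075), without B73 replicate 1 (0.067 to 0.12), without Mo17 replicate 1 (0.079 to 0.12) or 2 (0.077 to 0.14) and with the values as deposited, and 1 of the 3 also with a replicate block (0.051). In CDPK, a calcium-dependent protein kinase, the calls were 0.16 and -0.64, and the smaller ended under 9 of the 13 alternatives, without B73 replicate 1 among them (adjusted p = 0.12). The call at -0.64 ended with the values as deposited (0.12). For pglcat8 and zmm14, a MADS box gene, 1 of the opposing probe sets was near background in both lines, and with the floor its call ended (adjusted p = 0.35 for pglcat8 and 1 for zmm14). Both calls of zmm14 also ended without B73 replicate 1 (0.071 and 0.073) and without Mo17 replicate 2 (0.088 and 0.055), and the dim call of pglcat8 without B73 replicate 2 (0.094) or Mo17 replicate 1 (0.093). The IDs of the zmm14 probe sets differ only in the letter A or S, a kind of pair counted under the last observations.

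**Figure D4:**
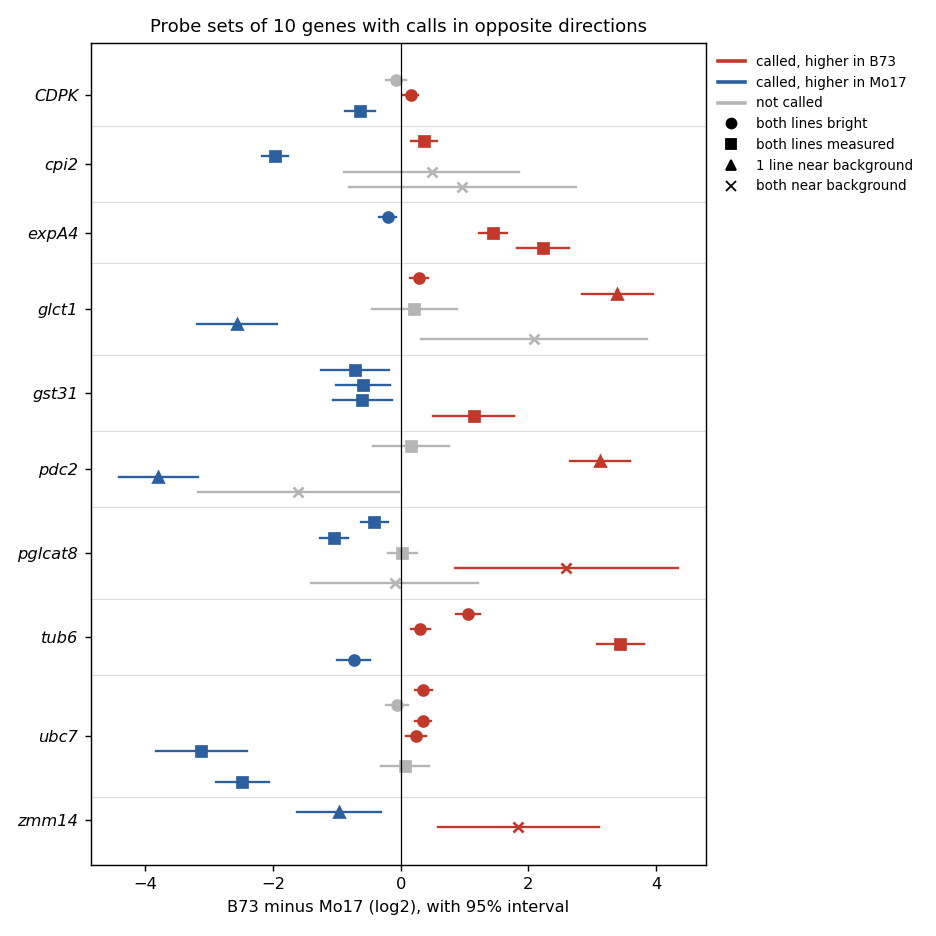
Difference B73 minus Mo17 on the log2 scale (horizontal axis, with 95% interval) of every probe set of the 10 genes with calls in opposite directions; red is called higher in B73, blue called higher in Mo17 and grey not called, and the marker shows the signal group. In tub6, ubc7 and expA4 probe sets bright in both lines or measured in both lie on opposite sides of 0, while in pdc2 and glct1 the large opposing ones have 1 line near background, where the size is not measured.

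A direct test asked whether 2 probe sets of a gene gave unequal differences, which opposite calls alone do not show. The brightest probe set of each gene was set against every other one measured in both lines, 198 pairs in 137 genes, with limma p-values adjusted over the pairs. The differences were unequal in 51 pairs (25.8%) of 43 genes, with 21 pairs apart by at least 1 on the log2 scale whether called or not, and the median gap over all pairs was 0.21. Among 78 pairs bright in both lines, 17 were unequal, in 15 of 56 genes, with a median gap of 0.11. For tub6 the gaps were 0.74, 2.39 and 1.79 in size, with adjusted p from 5.2e-07 to 7.5e-06. For cpi2 the gap was 2.34 ± 0.14 (adjusted p = 4.7e-07). For CDPK the pair with the second bright probe set was not unequal by this test (adjusted p = 0.12), and the pair with the dimmer one was (0.02).

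Probe sets without gene names could be grouped by the cluster number in their IDs, which 15376 of the 17621 IDs carry. The 1752 clusters with at least 2 probe sets (5018 probe sets) included 140 with all called one way, 730 with some called and all calls one way, 150 with calls in opposite directions and 732 with none. Of the 480 clusters with at least 2 calls 31.2% were opposite, and 28.4% of the 148 formed from bright probe sets. In 30 clusters opposite calls both reached 2-fold, and in 0 of these both were bright in both lines. A cluster number is not a gene, and one cluster can hold copies of a gene family. The cluster of his2b5, a histone H2B gene, had 13 probe sets, 10 of them bright in both lines. The probe set named his2b5 read 12.62, 12.69 and 12.69 in B73, against 6.08, 5.61 and 6.21 in Mo17. Zm.14497.4.A1_at, unnamed, read 1.36, 1.82 and 1.68 in B73, against 12.47, 12.41 and 12.39 in Mo17. These 2 probe sets lay at opposite extremes, while the 10 bright ones differed by -0.78 to 1.38.

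Gene groups were described at each gene's brightest probe set, 13 lists in all, beside a median difference of -0.06 and a called share of 35.9% over all probe sets. Most lists held calls in both directions. Of 28 aquaporin genes, for water and solute channels, 7 were higher in B73 and 5 higher in Mo17 (median -0.01). The embryo's brightest ones, tip3a and tip3b at 13.2 to 13.3 in both lines, did not pass the test. The plasma membrane aquaporin gene pip2-5 averaged 8.98 ± 0.16 in B73, against 6.19 ± 0.20 in Mo17 (SD, n = 3 each), a difference of 2.79 ± 0.17 (SE, limma adjusted p = 1.6e-08) without overlap. The family thus held differences in both directions, with tip1 (1.15) and nip3a (2.94) higher in B73 and tip2a at least 5.67-fold higher in Mo17. The call of nip2b (-2.06), near background in both lines, ended without any of 5 of the 6 arrays (limma adjusted p = 0.056 to 0.11). It also ended with the floor, which set all 6 arrays equal.

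Of 24 genes for tubulins, actin regulators and kinesins, 5 were higher in B73 and 7 higher in Mo17 (median -0.04). The beta tubulin tub3 was higher in B73 by 0.99, a call that ended without Mo17 replicate 3 (adjusted p = 0.066), and prf2, a profilin, was called higher in Mo17 near background (-2.42), a call that ended with the floor and without B73 replicate 2 or 3 or Mo17 replicate 1 or 2 (0.078 to 0.1). All 13 translation factor genes were bright in both lines, 2 were higher in B73 and 2 higher in Mo17, and their differences ran from -0.25 to 0.99 (median -0.02). The initiation factor subunit gene eif3 read 11.13, 11.13 and 11.11 in B73, against 9.98, 10.41 and 9.98 in Mo17 (0.99 ± 0.11, adjusted p = 7.5e-06). At the brightest probe sets eif3 stood apart from the other 12, which lay between -0.25 and 0.31. A second probe set of eif7, another gene of this list, was measured in both lines and differed by 3.59. The direct test found the 2 probe sets of eif7 unequal (limma adjusted p = 3.6e-09). Without normalization between arrays, eif7 (0.31), tif1 (-0.25) and tif5A (-0.21) no longer passed (adjusted p = 0.49, 0.69 and 0.73).

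Of 27 cell wall genes 6 were higher in B73 and 6 higher in Mo17 (median -0.07). Besides HRGP and CesA-4, the beta expansin gene expB3 read 10.61, 10.59 and 10.37 in B73, against 8.75, 8.36 and 8.52 in Mo17 (1.99 ± 0.10, adjusted p = 2.4e-09). The call of xet1 (2.48), a xyloglucan endotransglycosylase gene near background in both lines, ended with the floor and without any array but Mo17 replicate 1 (adjusted p = 0.05 to 0.11). Of 23 starch and sucrose cleavage genes, 3 were higher in B73 and 4 higher in Mo17 (median 0.01); sugary2, described above, was not among the names the list matched. The starch synthase gene ss1 was higher in B73 by 1.11 and the branching enzyme gene sbe1 higher in Mo17 (-0.36), a call that ended with the values as deposited (adjusted p = 0.49). The cell wall invertase gene mn1, whose enzyme acts in the basal endosperm, read 5.80, 5.18 and 6.79 in B73, against 7.88, 8.36 and 7.77 in Mo17 (-2.08 ± 0.34, adjusted p = 0.00028). The summed signal of the endosperm markers, of which zeins were the brightest, overlapped between the lines without dzs18. That of the 18 basal transfer layer and other endosperm genes did not, with 9250 to 10071 in B73 and 13675 to 17889 in Mo17. The part of endosperm RNA in the starch and sucrose list was not tested.

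Of 31 hormone genes 5 were higher in B73 and 9 higher in Mo17 (median -0.15). Higher in B73 were aba1, an abscisic acid gene, and ciszog1, a cytokinin glucosyltransferase, at least 2.70-fold and 2.31-fold with Mo17 near background. So were yuc (0.96) and aic1 (0.94), named for auxin synthesis and import, and etr2 (0.25), an ethylene receptor. The cytokinin receptor gene hk3 read 6.39, 6.86 and 6.88 in B73, against 7.88, 8.29 and 8.45 in Mo17 (-1.49 ± 0.19, adjusted p = 3.2e-05). The phosphotransfer genes of cytokinin signalling HP1 (-0.45), hp2 (-0.31) and HP3 (-0.40) were called in the same direction. Of 24 kinase and phosphatase genes 3 were higher in B73 and 3 higher in Mo17 (median -0.02, 25% called), among them the receptor kinase gene cr4 (0.51), which did not pass with the values as deposited (adjusted p = 0.16), and SnrK1 (-0.34, adjusted p = 0.047), whose call ended under 10 of the 13 alternatives, a replicate block among them (0.058).

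Of 19 nitrogen and amino acid genes 5 were higher in B73 and 3 higher in Mo17 (median 0.00). The glutamine synthetase gene gln5 read 8.46, 8.76 and 9.09 in B73, against 6.80, 6.31 and 6.44 in Mo17 (2.26 ± 0.19, adjusted p = 3.9e-07), and the serine acetyltransferase gene sat3, for cysteine synthesis, was higher in B73 by 1.44. The call of sat1 (-2.71), near background in both lines, ended with the floor. Of 24 transporter and proton pump genes 2 were higher in B73 and 8 higher in Mo17 (median -0.42), and 9 of the 24 were near background in both lines. With the floor the median of these genes was -0.04. The multidrug resistance-associated transporter gene MRP2 read 8.61, 8.83 and 8.85 in B73, against 5.42, 5.80 and 6.16 in Mo17 (2.97 ± 0.17, adjusted p = 1.1e-08). Higher in Mo17 were the phosphate transporter gene pht1 (-1.46), the sucrose transporter gene sut1 (-0.95) and the proton pump genes mha4 (-1.13), vpp1 (-0.42) and mha1 (-0.37), of which mha1 did not pass with the floor (adjusted p = 0.076). Of 8 carotenoid, tocopherol and tetrapyrrole genes 3 were called, each higher in Mo17 (median -0.14). They were BCH2, a carotene hydroxylase (-1.39), VTE5, a phytol kinase of tocopherol synthesis (-0.73), and oy1, a magnesium chelatase subunit of chlorophyll synthesis (-0.55). The call of oy1 ended with the floor (adjusted p = 0.062) and without any array but B73 replicate 3 (0.054 to 0.12).

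Of 14 protease, inhibitor and ubiquitin genes 3 were higher in B73 and 3 higher in Mo17 (median -0.06). The cystatin gene cc7 was higher in B73 by 0.86, and both genes named mir3, for a protease, were higher in Mo17 (-1.74 and -1.53). Of 15 genes for seed storage proteins, oleosins and LEA proteins, B73 had the higher level at 8 and Mo17 at 1, glb2 (median 0.31). Higher in B73 were esp5, an LEA gene also called EMB5 (2.26), mlg3 (1.40) and the dehydrin genes dhn1 (1.09) and dhn2 (0.70). The call of dhn1 ended with the floor (adjusted p = 0.079) and without B73 replicate 1 or 3 or Mo17 replicate 2 or 3 (0.064 to 0.11). For esp5 the arrays read 11.80, 11.64 and 11.72 in B73, against 10.28, 9.10 and 9.01 in Mo17, where replicate 1 stood above the other two. Mo17 replicate 1 was also the highest Mo17 array for esp1, mlg3 and dhn1. Among the 10 embryo markers it was the highest for all but ole1, glb3 and lec1. For lec1 it was the lowest, with Mo17 arrays at 8.05, 8.68 and 9.22. Of 18 basal transfer layer and other endosperm genes 2 were higher in B73 and 9 higher in Mo17 (median -1.07, and -0.15 with the floor). The transcription factor genes o2, Opaque2, and ohp1, its heterodimerizing partner, were higher in B73 by 2.82 and 1.89 at their brightest probe sets. A second probe set of o2, measured in both lines, differed by 0.70, and the direct test found the 2 unequal (limma adjusted p = 8.3e-05). Transfer layer genes bap2 (-1.92), bap1-b (-1.84), bap-1a (-1.32), betl4 (-1.29) and betl1c (-1.03) were higher in Mo17. The gene bap-3a, near background in B73, was called in that direction but not with the floor (adjusted p = 0.34). Not called were betl3 (-0.17, limma adjusted p = 0.54) and bap-3b (0.73, adjusted p = 0.17), the latter near background in both lines. Without Mo17 replicate 2 bap-3b passed towards B73 (adjusted p = 0.032). Of the 21 endosperm markers 4 were called higher in B73 and 7 higher in Mo17. Their summed signal, to which zeins gave the brightest values, was higher in every B73 array than in every Mo17 array with dzs18. Without dzs18 it overlapped between the lines. The summed signal of the 18 basal transfer layer and other endosperm genes was lower in every B73 array (9250 to 10071) than in every Mo17 array (13675 to 17889). The part of endosperm RNA in these lists was not tested.

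**Figure D5:**
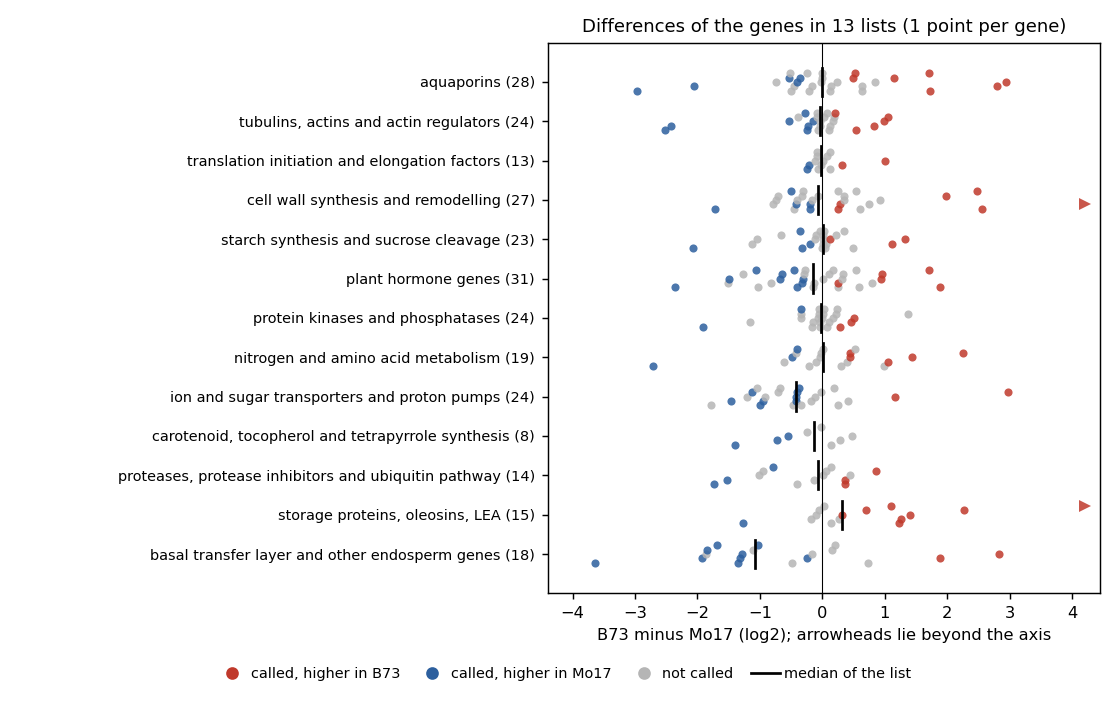
Difference B73 minus Mo17 on the log2 scale (horizontal axis) of each gene in 13 lists, 1 point per gene at its brightest probe set, red where called higher in B73, blue where called higher in Mo17 and grey where not called; black bars are list medians, and arrowheads stand for HRGP (at least 60.8-fold) and dzs18 (7.04). The medians of the transporter list (-0.42) and of the basal transfer layer list (-1.07) lie below that of all probe sets (-0.06), and that of the storage protein list (0.31) above it; with the floor the first 2 are -0.04 and -0.15.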

How the data were processed

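The deposited intensity values, linear MAS5 signals per probe set in 1 table per the submitters' processing notes (no version given), were used. Normalization between arrays is not given in the sources used here, and array medians differed, so log2 signals were quantile normalized over the 12 arrays, which removes any overall difference between lines. The 113 control probe sets were left out and no other filter was set. Group means were fitted over the 4 genotypes with limma 3.58.1 in R 4.3.3 (intensity trend; residual degrees of freedom 8, median prior 5.1). P-values are two-sided and Benjamini-Hochberg adjusted over 17621 probe sets, with a threshold of 0.05. Precision is limited by the number of arrays. The table held 0 value columns outside these samples. Spread between replicates includes the collection date.

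Gene names came from the platform annotation, updated by gene ID through the RefSeq table of Zm-B73-REFERENCE-NAM-5.0: 1452 probe sets stand for 1108 genes, 1060 of them matched, and 976 have a name other than a locus number. Lists were matched on names and synonyms. Named were the 8 largest differences each way among bright genes, the 5 brightest with either line near background, all genes with opposite calls, 6 each way with all probe sets agreeing by the smallest difference, up to 4 a list, the 6 narrowest intervals and 2 unnamed probe sets each way. His2b5's cluster, and list members beyond those 4, were chosen after their values were seen, as were the direct test between probe sets, the marker sum without dzs18 and the list medians with the floor. The comparison, the signal groups and the lists were all chosen with earlier results of these data known. Same-numbered B73 and Mo17 arrays share a collection date per the labels, and their deviations from the line means correlated by 0.09, -0.0017 and 0.04. Alternatives were median centring, no normalization, the 6 inbred arrays alone, a floor at the 25th percentile, dim probe sets left out, no intensity trend, a replicate block, each array left out, other group limits and other rules for probe sets.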

Additional observations from a re-analysis of the deposited data

How the results depend on the processing

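The counts over all probe sets, signal groups, 5 hybrid-ranked groups, multi-probe genes, clusters and lists stayed within 1.5 times under most alternatives (253 of 276 values). Most exceptions came with the values as deposited: 2963 probe sets were called (1813 higher in B73, 1150 higher in Mo17), 289 with both lines bright, 1773 measured but not both bright, and 902, 638 and 421 in the 3 brightest hybrid-ranked groups. With those values 14 genes had all probe sets called one way, 44 some and 4 opposite, 61 clusters were all one way and 42 opposite, and 62 list genes were called, against 114. With the floor 2 probe sets near background in both lines and 44 of the dimmest hybrid-ranked group were called. With dim probe sets left out, 199 with only Mo17 above background were called and 0 of that group, as fewer probe sets were tested. Group limits at the 20th and 80th percentiles gave 124 calls near background, and at the 33rd and 67th 508. With measured probe sets alone, 50 genes had some calls one way and 6 opposite calls.

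Leaving out each array in turn gave 5383 to 5836 calls over all probe sets (2540 to 2727 higher in B73, 2843 to 3124 higher in Mo17, 2270 to 2352 at 2-fold), 1267 to 1469 with both lines bright, 3242 to 3494 measured, 391 to 412 with Mo17 and 291 to 311 with B73 near background, and 170 to 189 near background in both. It gave 190 to 217, 921 to 993, 1465 to 1574, 1475 to 1594 and 1312 to 1489 in the hybrid-ranked groups, dim to bright, 23 to 28, 77 to 84 and 6 to 11 genes (all one way, some, opposite; 6 without Mo17 replicate 1), 107 to 126 opposite and 115 to 126 agreeing clusters, and 95 to 101 list genes. With a replicate block 6562 probe sets were called, and the block ended 3 calls of named probe sets (gst31, SnrK1 and Agp2) and added 2 (glct1 and gz50); it changed no other call among the 156 named probe sets. Of the 128 named probe sets called, 91 kept their call under each of the 13 alternatives that tested them. Median centring moved the median difference of all probe sets to -0.10, against -0.06.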

Other observations

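The control probe sets left out of the comparison held a difference between the lines. In the deposited values, 1 control probe set for the 5' part of an actin transcript had a log2 signal of 7.90, 7.74 and 7.43 in B73, against 3.70, 0.14 and 3.76 in Mo17. A second one for the same part read 7.93, 7.54 and 7.59 in B73, against 5.67, 5.23 and 5.92 in Mo17. Another for that part, the one used for the actin ratio given earlier, read 10.79, 10.43 and 10.83 in B73, against 10.81, 10.90 and 11.58 in Mo17. The lines did not overlap at the first 2 and overlapped at the last.

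Probe set IDs that differ in the letter A or S alone formed 742 pairs. In 431 of them 1 probe set was near background in both lines and the other was not, the dim one tagged A in 233 and S in 198. In 144 pairs both were measured in both lines, and 3 of these had both called, 2 in the same direction and 1 in opposite directions, while 49 had 1 called.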
